A study of Mus musculus with 7 samples.

Results

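The PRAME gene clusters of mouse chromosomes 4 and 5 were examined in Setd1b cKO and Setd1b WT oocytes. Members were all transcripts of the oocyte table that start, in GRCm38, between 143.2 and 144.6 Mb of chromosome 4 or between 93.5 and 95.9 Mb of chromosome 5. This gave 73 of 33437 transcripts, 47 on chromosome 4 and 26 on chromosome 5. Of these, 22 on chromosome 4 and 19 on chromosome 5 carried a gene of the PRAME family, 5 and 1 carried another gene, and 20 and 6 had no annotated gene on their strand.

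Single germinal vesicle (GV) oocytes, fully grown oocytes that had not resumed meiosis, were taken from 21-day-old C57BL6 females and sequenced as 1 library each. All females were Setd1b floxed/floxed. The 4 Setd1b cKO libraries came from Gdf9-Cre positive females and the 3 Setd1b WT libraries from Gdf9-Cre negative females. Gdf9-Cre is driven by an oocyte growth factor gene and acts once follicles begin to grow, so Setd1b was intact before that stage. The study's methods also count Cre carriers with 1 intact Setd1b allele as WT, and the labels were followed here. Which oocytes came from the same female is not given. Levels are RPM, reads per 1000000 mapped reads, which are not corrected for transcript length and are therefore compared between genotypes and not between genes.

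PRAME family proteins are built of leucine-rich repeats, and the family was named after a human tumour antigen that is normally restricted to the germline. Several members are substrate receptors of cullin ubiquitin ligases. In rodents the family has grown by tandem duplication into large clusters, and members such as the oogenesins (Oog genes) are known for their expression in oocytes. SETD1B is a methyltransferase that places H3K4me3, the mark of active promoters.

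The libraries held 8582493 to 12972366 mapped reads, so that 1 read was worth 0.0771 to 0.117 RPM. The tests covered the 18179 transcripts that reached 1 RPM in 3 or more libraries. The Setd1b transcript, which is counted over its whole length and not over the deleted segment, had 8.31, 16.7, 12.8 and 2.68 RPM in cKO and 17.7, 16.3 and 8.61 RPM in WT (adjusted p = 0.533), and so did not check the labels. Of 14 oocyte markers 12 were in the table, with summed levels of 22108 to 22790 RPM in cKO and 26796 to 27512 RPM in WT and none past the threshold. Every cKO sum thus lay below every WT sum. The median log2 fold change of these markers was -0.29, beside 0.12 over all transcripts tested, and its part in the results was not tested. Of 16 granulosa and cumulus cell markers, 7 stayed under 1 RPM in every library, among them Amh, Foxl2 and Amhr2, and the list summed to 122 to 289 RPM in cKO and 93.5 to 277 RPM in WT. Its 7 tested markers had a median log2 fold change of 0.33 and none was past the threshold. Serpine2 held 44.9 to 200.4 RPM in cKO and 43.0 to 213 RPM in WT, and Inha had 7.03, 11.4, 13.2 and 0.583 RPM in cKO and 0.810, 4.32 and 0 RPM in WT (log2 fold change 1.70, adjusted p = 0.225). The part of these markers in the results was not tested. Of 8 theca, stroma and blood markers 5 stayed under 1 RPM, and the list summed to 14.6 to 24.5 RPM in cKO and 16.3 to 21.5 RPM in WT. Of this list Dcn, a proteoglycan gene of stroma, was past the threshold, with 5.15 to 7.25 RPM in cKO and 0.891 to 3.09 RPM in WT (log2 fold change 1.45, adjusted p = 0.0248), and its part in the results was not tested. The libraries cKO replicate 4 and WT replicate 3 deviated together from their groups (Pearson's r = 0.608 over tested transcripts, which are not independent replicates), and were the lowest of their genotype at most of the members with the highest RPM. Main results are also given without both, a choice made after seeing the data.

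The copies are close enough in sequence to bear on what a read of 75 bases can tell apart. Among the genes of tested members with at least 900 annotated coding bases, which leaves out AA792892 and Gm6367, coding identity was 51.2% to 96.5% within the chromosome 4 cluster (120 pairs, median 57.5%) and 58.8% to 100% within the chromosome 5 cluster (78 pairs, median 84.7%). Between the clusters it was 42.3% to 68.4%. Without Gm6205, whose annotated coding sequence is shorter at 1080 bases, the lowest values were 78.4% within chromosome 5 and 52.4% between the clusters. The last 75 coding bases, the stop codon included and as long as 1 read, show these relations for the copies described below. Sequences are from the GENCODE M21 transcripts of GRCm38, written 5′ to 3′, with capitals where a copy differs from the first of its set.

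On chromosome 4 the 3 closest pairs of coding genes are shown, Pramel27 at chr4:143853248-143853322 (+ strand) with Pramel22 at chr4:143654069-143654143 (- strand), Pramel25 at chr4:143795238-143795312 (+ strand) with Pramel29 at chr4:144207039-144207113 (- strand), and Pramel26 at chr4:143810275-143810349 (- strand) with Oog2 at chr4:144196523-144196597 (+ strand). The first and last pairs were identical over this stretch, and Pramel25 and Pramel29 differed at 9 bases.
Pramel27: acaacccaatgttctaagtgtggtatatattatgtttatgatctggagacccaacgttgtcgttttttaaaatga
Pramel22: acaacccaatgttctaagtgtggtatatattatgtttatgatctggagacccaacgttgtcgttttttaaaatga
Pramel25: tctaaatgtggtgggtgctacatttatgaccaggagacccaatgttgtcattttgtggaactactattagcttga
Pramel29: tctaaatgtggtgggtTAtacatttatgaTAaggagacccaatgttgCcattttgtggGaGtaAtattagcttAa
Pramel26: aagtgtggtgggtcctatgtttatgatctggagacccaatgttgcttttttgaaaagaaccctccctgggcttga
Oog2: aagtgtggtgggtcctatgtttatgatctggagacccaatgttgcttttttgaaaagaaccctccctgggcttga

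On chromosome 5 the stretches are shown for a first set, Pramel34 at chr5:93636176-93636250 (- strand), Pramel47 at chr5:95342864-95342938 (+ strand) and AA792892 at chr5:94384021-94384095 (+ strand), which differed from Pramel34 at 1 and 5 bases. A second set is Gm3183 at chr5:94876818-94876892 (+ strand), to which Gm16513, Pramel35 and Pramel38 were identical, with Pramel42 at chr5:94537854-94537928 (+ strand). The last set is Pramel48 at chr5:95484597-95484671 (+ strand), to which Gm3286 and E330014E10Rik were identical.
Pramel34: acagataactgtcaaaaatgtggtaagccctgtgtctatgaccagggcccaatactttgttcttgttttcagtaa
Pramel47: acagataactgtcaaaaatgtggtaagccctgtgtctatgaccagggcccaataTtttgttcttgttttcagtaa
AA792892: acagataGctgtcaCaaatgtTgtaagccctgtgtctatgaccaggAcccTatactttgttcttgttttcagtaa
Gm3183: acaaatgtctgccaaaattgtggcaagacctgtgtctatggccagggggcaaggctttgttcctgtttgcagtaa
Pramel42: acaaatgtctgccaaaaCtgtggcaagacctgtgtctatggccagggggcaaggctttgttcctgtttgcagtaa
Pramel48: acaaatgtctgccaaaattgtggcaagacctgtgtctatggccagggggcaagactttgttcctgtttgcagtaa

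Over the annotated transcripts of a gene, the share of 75-base words also found in another gene was 0% for Pramel12, Oog4, Pramel23, Pramel15 and Pramel13, 30.4% for Pramel27 and 35.5% for Pramel22. Among the other calls on chromosome 4 it was 42.3% for Gm13058, 64.4% for Pramel14 and 19.0% to 82.2% for the genes of Gm13108-Pramel4. For members on chromosome 5 that carry 1 gene it ran from 29.6% (Gm43225) and 33.0% (AA792892) to 100% (Gm3302). Hits of low mapping quality had been removed before the values were made, and how reads from shared stretches were assigned was not tested. For a member with a high share the level of the single copy is therefore uncertain, and the sum over the cluster is given below.

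In the chromosome 4 cluster a few copies lost most of their RNA in Setd1b cKO oocytes while others next to them did not pass the test. Pramel27 had the largest change, with a mean of 28.4 RPM in cKO against 479 RPM in WT, and Gm13058, Pramel22 and Pramel23 were 5.20-fold to 6.78-fold lower. Of the 47 members 22 were tested, and 5 were lower and 1 was higher at an adjusted p under 0.05 and over 2-fold, where 1.95% of all transcripts tested were lower, 3.76% were higher and 5.71% were either. Where only transcripts averaging 16 RPM or more were counted, 2.88% were lower. The tested members had a median log2 fold change of -0.50 and ranged from -4.04 to 1.62, beside a median of 0.12 over all transcripts tested. All 6 members past the threshold were among the 18 tested members of the PRAME family, whose median was -0.80. In 6 of the 22 every cKO library lay below every WT library and in 2 every one lay above, beside 7.14% and 13.2% of all transcripts tested. Without cKO replicate 4 and WT replicate 3, 6 members were lower and 1 was higher, beside 2.89% and 5.98% of all transcripts in that fit, and the median over tested members was -0.40. One of the 5 lower members, Pramel14, met the filter only through its WT libraries. With a mean of at least 4 RPM as the filter 4 members were lower, beside 2.39% of all transcripts in that fit. Leaving out 1 library, 3 members were lower without cKO replicate 1, cKO replicate 3, WT replicate 1 or WT replicate 2. Of all transcripts in those fits 1.25%, 1.32%, 0.752% and 0.609% were lower. In every fit without 1 library but that without cKO replicate 4, 0 members were higher, beside 0.955% to 3.24% of all transcripts. The median over tested members was -0.22 without WT replicate 1 and -0.25 without cKO replicate 4.

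Pramel27 had 24.2, 35.9, 31.6 and 22.0 RPM in the cKO libraries and 473, 551 and 413 RPM in the WT libraries. The genotypes were far apart, with every cKO library more than 10 times below every WT library, and all 7 fits that left out 1 library called it. The log2 fold change was -4.04 (SE 0.23, adjusted p = 6.28e-05). Pramel27 is a protein-coding copy on the forward strand at chr4:143843768-143853864.

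Pramel22, the copy closest to Pramel27 (92.5% coding identity), had 16.8, 26.5, 24.2 and 10.8 RPM in cKO and 104, 118 and 83.0 RPM in WT. It lies on the reverse strand at chr4:143653760-143661920, and its log2 fold change was -2.38 (SE 0.31, adjusted p = 0.00328). The genotypes did not overlap. Gm13058, annotated as an unprocessed pseudogene, with its transcript at chr4:143594788-143601010, had 12.7, 15.4, 15.6 and 10.6 RPM in cKO and 63.9, 115 and 97.1 RPM in WT, with a log2 fold change of -2.65 (SE 0.26, adjusted p = 0.00118). All 7 fits without 1 library called both Pramel22 and Gm13058.

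Pramel23 at chr4:143695721-143702722, which shared none of its 75-base words with another gene, had 19.9, 34.6, 13.6 and 9.20 RPM in cKO and 87.1, 225 and 49.2 RPM in WT. The WT libraries were widely spread but all lay above the cKO libraries, and the log2 fold change was -2.45 (SE 0.51, adjusted p = 0.0204). The call rested on several libraries, with adjusted p = 0.0525, 0.0693, 0.0645 and 0.0878 without cKO replicate 1, cKO replicate 3, WT replicate 1 and WT replicate 2.

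The other calls on chromosome 4 were at low levels. Pramel14 had 0.693, 0.165, 0.348 and 0.233 RPM in cKO, or 7, 2, 4 and 2 reads, and 1.296, 2.85 and 4.96 RPM in WT (log2 fold change -1.48, SE 0.35, adjusted p = 0.0345). The groups did not overlap. All 4 cKO libraries were under 1 RPM, so Pramel14 met the filter only through the WT libraries, where it was high, and its call cannot count as support. It could be tested in 4 of the 7 fits that left out 1 library, and its call was lost without any 1 of cKO replicates 1, 2 and 3 (adjusted p = 0.0560, 0.0732 and 0.0843) and in voom on the reads (adjusted p = 0.0993). The only member that was higher was a transcript at chr4:144033631-144069327 that spans Gm13108 and Pramel4, with 11.4, 9.72, 13.3 and 5.13 RPM in cKO and 2.27, 3.55 and 1.59 RPM in WT. The log2 fold change of Gm13108-Pramel4 was 1.62 (SE 0.35, adjusted p = 0.0233), and the call held without cKO replicate 4 and was lost without each of the 6 other libraries (adjusted p = 0.0510 to 0.0853).

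**Figure D1:**
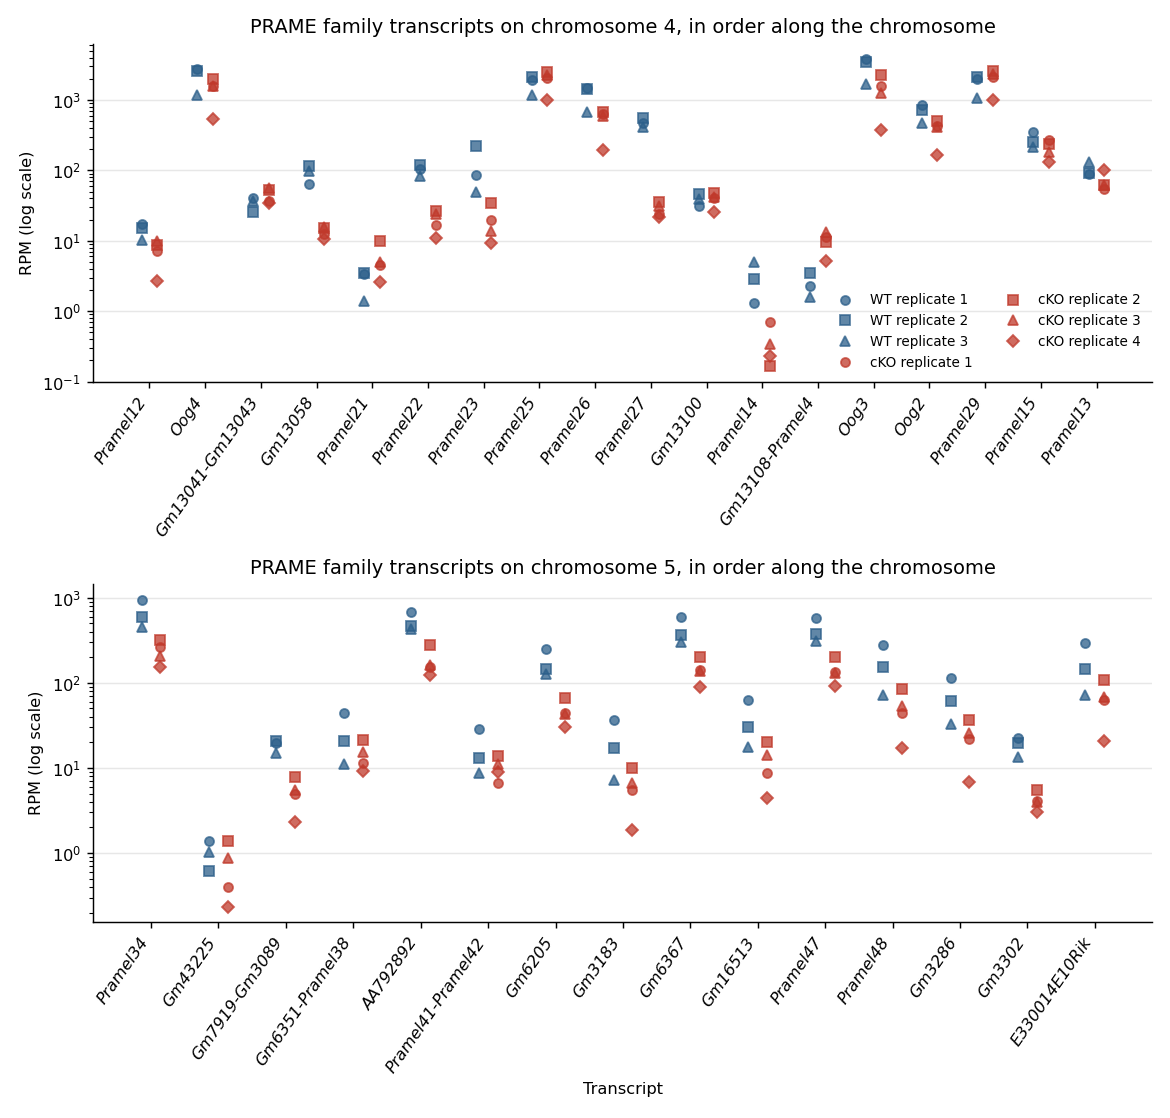
RPM on a log scale of the tested PRAME family transcripts in each library, in order along chromosome 4 (upper panel) and chromosome 5 (lower panel), with WT libraries in blue, cKO libraries in red and 1 symbol per replicate. The red points of Pramel27, Pramel22, Pramel23 and Gm13058 lie far below the blue ones, Pramel25 and Pramel29 overlap, and most chromosome 5 transcripts are shifted down by a similar distance.

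The transcripts that held most of the reads of the cluster did not pass the threshold. Oog3, Oog4, Pramel25, Pramel29 and Pramel26 together made up 82.7% of the summed WT RPM of the cluster. Oog3 had 1577, 2235, 1263 and 370 RPM in cKO and 3772, 3435 and 1681 RPM in WT, with a log2 fold change of -1.30 (SE 0.54, adjusted p = 0.191). Only WT replicate 3 fell within the range of the cKO libraries.

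Pramel26 had 624, 683, 597 and 193 RPM in cKO and 1488, 1433 and 674 RPM in WT (log2 fold change -1.26, SE 0.45, adjusted p = 0.130), where again WT replicate 3 alone lay within the cKO range. Without cKO replicate 4 and WT replicate 3 both Pramel26 (log2 fold change -1.20, adjusted p = 6.00e-04) and Oog3 (log2 fold change -1.13, adjusted p = 0.00548) were past the threshold. That fit was chosen after seeing the data and leaves out the WT library that overlapped, so these calls cannot count as support. Oog2, the closest copy of Pramel26, had 421, 499, 416 and 164 RPM in cKO and 842, 716 and 472 RPM in WT (log2 fold change -0.92, adjusted p = 0.179). Oog4 had 1560, 1992, 1597 and 541 RPM in cKO and 2757, 2608 and 1171 RPM in WT (log2 fold change -0.67, adjusted p = 0.451).

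Pramel25 and Pramel29 were close to equal between the genotypes. Pramel25 had 2077, 2510, 2263 and 985 RPM in cKO and 1904, 2102 and 1188 RPM in WT (log2 fold change 0.13, SE 0.35, adjusted p = 0.877). Pramel29 had 2118, 2586, 2317 and 1012 RPM in cKO and 2003, 2098 and 1061 RPM in WT (log2 fold change 0.20, SE 0.37, adjusted p = 0.814). In each gene cKO replicate 4 and WT replicate 3 were the lowest of their genotype, and the other 5 libraries lay between 1904 and 2586 RPM.

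The remaining tested PRAME members of the cluster were not past the threshold. Pramel15 (205 RPM in cKO and 273 RPM in WT on average), Pramel13 (70.3 and 104 RPM) and Pramel12 (7.12 and 14.2 RPM) had log2 fold changes of -0.43, -0.58 and -0.99, with adjusted p from 0.160 to 0.431. Every cKO library of Pramel12 lay below every WT library. The pseudogene Gm13100 had 40.1, 47.3, 41.8 and 25.3 RPM in cKO and 31.6, 46.7 and 38.9 RPM in WT, and its log2 fold change of -0.03 changed sign between settings. Pramel21 (log2 fold change 0.73) and the transcript spanning Gm13041 and Gm13043 (log2 fold change 0.39) had adjusted p of 0.333 and 0.427.

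Along the coordinate, the 5 lower members start between chr4:143594788 and chr4:143987375, a stretch of 392587 bases. It holds 9 of the 18 tested PRAME members, with log2 fold changes from -4.04 (Pramel27) to 0.73 (Pramel21), and 4 of the 9 were not past the threshold. The far end of the stretch is Pramel14, whose call cannot count as support. Of the other lower members the last, Pramel27, starts at chr4:143843768. Pramel25 and Pramel26, with log2 fold changes of 0.13 and -1.26, lie between Pramel23 (-2.45) and Pramel27 (-4.04).

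**Figure D2:**
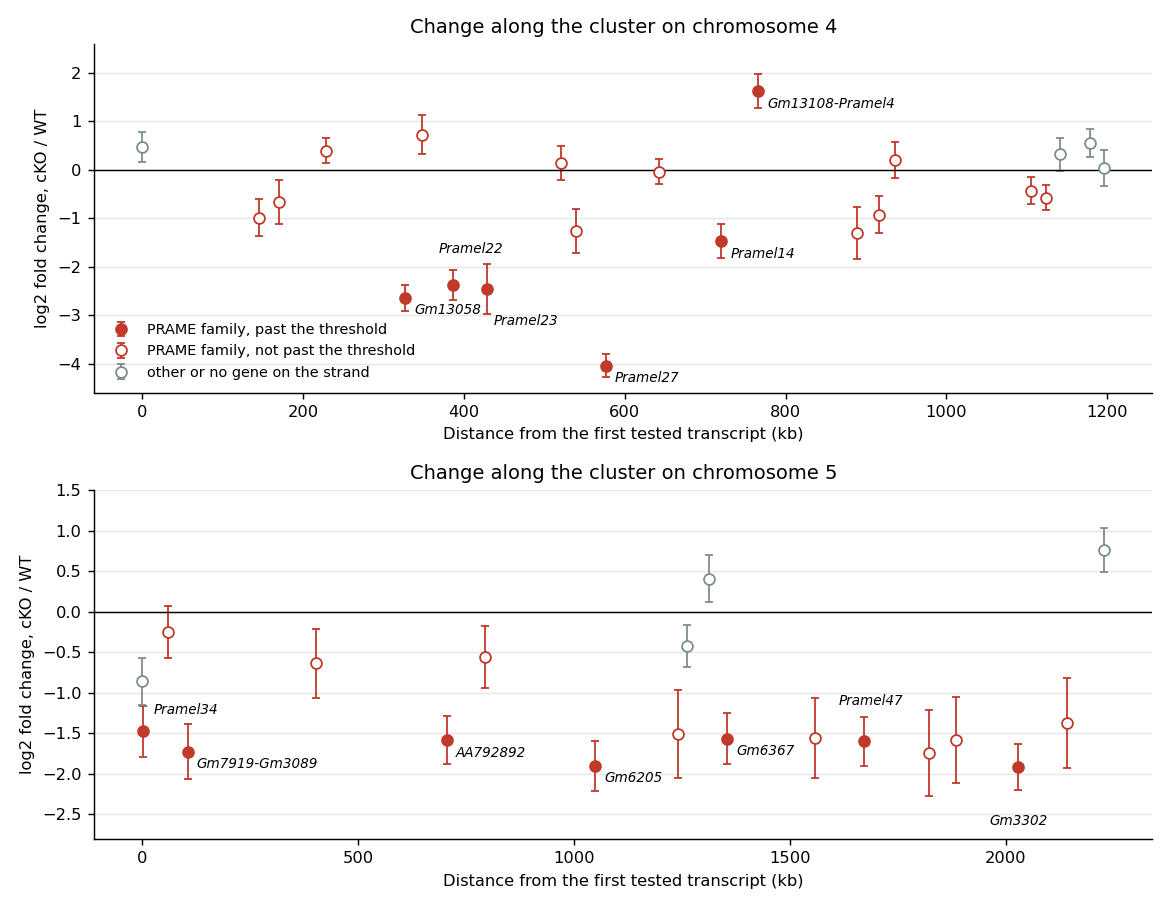
Log2 fold change of cKO over WT (log2(RPM + 1) scale, bars are the standard error from limma) of every tested member against the distance of its start from the first tested transcript of the cluster, in kb. Filled red points are PRAME family transcripts past the threshold, open red points are those not past it, and grey points are transcripts of another gene or of no gene on their strand. On chromosome 4 the points scatter from -4.04 to 1.62, and on chromosome 5 all 15 red points lie below 0.

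Because close copies can exchange reads, the closest copies on chromosome 4 were set against each other within each library. The log2 ratio of Pramel27 to Pramel22 was 0.56 ± 0.27 (SD, n = 4) in cKO and 2.23 ± 0.07 (SD, n = 3) in WT, a difference of -1.66 with no overlap (exact permutation test with 35 arrangements, two-sided p = 0.0286, the smallest possible, and 0.0571 adjusted over 4 pairs). Both copies were lower in cKO, and the ratio between them was smaller there in every library. The pseudogenes Gm13058 and Gm13100, 97.4% identical over 1422 aligned bases, had a log2 ratio of -1.42 ± 0.19 (SD, n = 4) in cKO and 1.19 ± 0.17 (SD, n = 3) in WT (exact permutation p = 0.0286, 0.0571 adjusted). The ratio lay between -1.59 and -1.18 in the cKO libraries and between 0.99 and 1.297 in the WT libraries.

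The ratio of Pramel26 to Oog2 was 0.44 ± 0.15 (SD, n = 4) in cKO and 0.78 ± 0.24 (SD, n = 3) in WT (exact permutation p = 0.0857, 0.114 adjusted), and that of Pramel29 to Pramel25 was 0.036 ± 0.0065 in cKO and -0.031 ± 0.12 in WT (exact permutation p = 0.343). With 4 against 3 libraries no pair could reach an adjusted p under 0.05 in this test unless at least 3 of the 4 had the smallest p. The pairs were taken by sequence, after the values of the members were known.

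**Figure D3:**
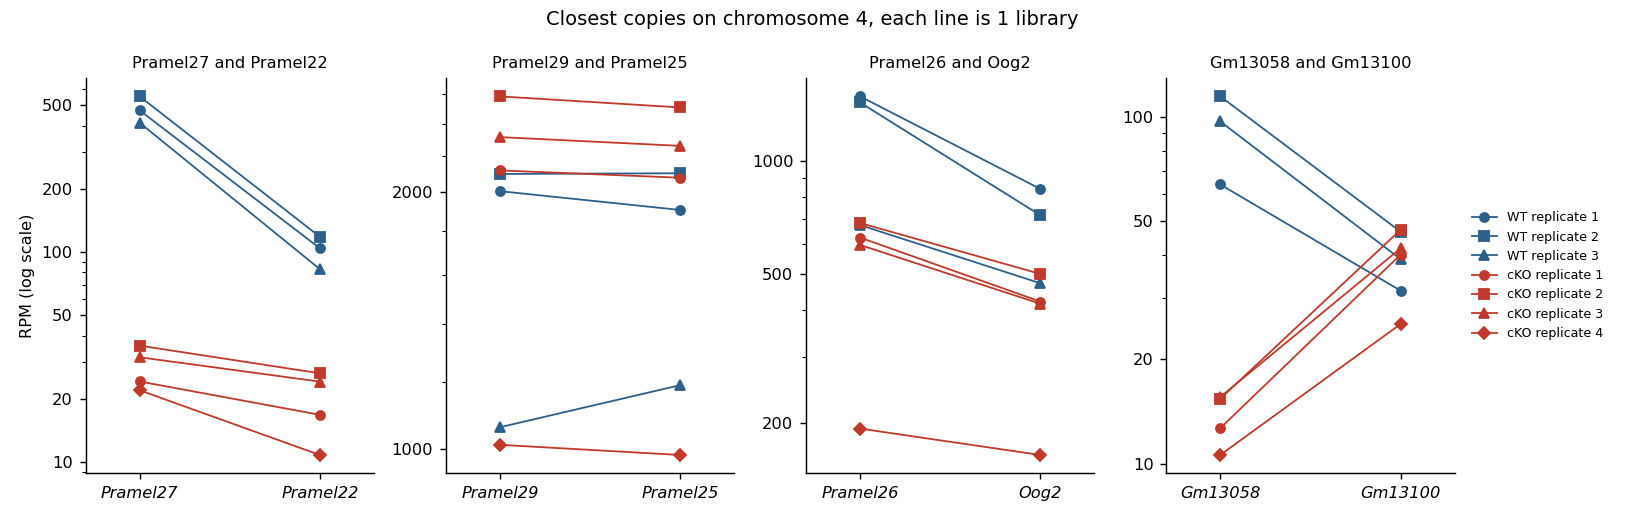
RPM on a log scale of the closest copies on chromosome 4, with 1 line per library joining both copies (WT blue, cKO red). Red and blue lines lie in 1 range for Pramel29 and Pramel25, are separated and differ in slope for Pramel27 and Pramel22, and run in opposite directions for Gm13058 and Gm13100.

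In the chromosome 5 cluster the estimates of all tested PRAME members were lower in Setd1b cKO oocytes, in a narrower range than on chromosome 4. The 15 tested PRAME members all had a negative log2 fold change, from -0.25 to -1.91 with a median of -1.56, and 7 were past the threshold. Over all members 19 of 26 were tested, 7 were lower and 0 were higher by limma, beside 1.95% and 3.76% of all transcripts tested, and the median was -1.51. In 14 of these 19 the unadjusted p was under 0.05, as in 21.7% of all transcripts tested. In 9 of the 19 every cKO library lay below every WT library, beside 7.14% of all transcripts tested. Among the 9 is an unnamed transcript at chr5:94895822-94922387, with a mean of 0.571 RPM in cKO and 1.09 RPM in WT. All its cKO libraries were under 1 RPM, so it met the filter only through its WT libraries and cannot count as support. Since the copies share much of their sequence, they are not independent measurements. Without cKO replicate 4 and WT replicate 3, 12 members were lower, beside 2.89% of all transcripts in that fit, and the median was -1.57. Leaving out 1 library, 2 members were lower without WT replicate 1 and 2 without WT replicate 2. Of all transcripts in those fits 0.752% and 0.609% were lower.

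Pramel34, AA792892, Gm6367 and Pramel47 together made up 73.4% of the summed WT RPM of the cluster. Pramel34 at chr5:93634993-93671566 had 265, 317, 206 and 152 RPM in cKO and 948, 590 and 453 RPM in WT (log2 fold change -1.48, SE 0.32, adjusted p = 0.0221). Pramel47, its closest copy at 98.7% coding identity, had 134, 199, 131 and 91.5 RPM in cKO and 587, 373 and 307 RPM in WT (log2 fold change -1.60, SE 0.30, adjusted p = 0.0135). Pramel47 starts at chr5:95305755, and 14 of the 15 tested PRAME members lie in the stretch from Pramel34 to Gm3302 described below.

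AA792892, of which a smaller part is shared with other copies, had 153, 277, 164 and 123 RPM in cKO and 686, 469 and 424 RPM in WT (log2 fold change -1.58, SE 0.30, adjusted p = 0.0129). Gm6367 had 142, 203, 137 and 89.3 RPM in cKO and 598, 369 and 304 RPM in WT (log2 fold change -1.56, SE 0.31, adjusted p = 0.0170). Gm6205 had 44.6, 66.3, 42.9 and 30.2 RPM in cKO and 252, 146 and 128 RPM in WT (log2 fold change -1.90, SE 0.31, adjusted p = 0.00753). In each of these 5 genes the cKO libraries lay below all WT libraries, cKO replicate 2 was the highest cKO library and WT replicate 1 the highest WT library.

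Gm3302 at chr5:95662896-95664688, whose 75-base words were all shared with other genes, had 4.06, 5.52, 4.01 and 3.03 RPM in cKO and 22.7, 19.4 and 13.5 RPM in WT (log2 fold change -1.91, SE 0.28, adjusted p = 0.00546). The transcript at chr5:93739391-93998958, which runs over Gm7919, Gm3089 and several further copies including Pramel35, had 4.95, 7.82, 5.57 and 2.33 RPM in cKO and 19.8, 20.5 and 14.97 RPM in WT (log2 fold change -1.73, SE 0.34, adjusted p = 0.0157). Neither overlapped between the genotypes.

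Of the 7 calls, Gm6205 and Gm3302 were kept in all 7 fits without 1 library. Without WT replicate 1 the adjusted p was 0.0983 for Pramel34, 0.0642 for Pramel47, 0.0642 for AA792892, 0.0775 for Gm6367 and 0.0697 for Gm7919-Gm3089. Without WT replicate 2 it was 0.0845, 0.0611, 0.0587, 0.0698 and 0.0806 in the same order. Pramel34 was also lost without cKO replicate 1 (0.0505) and cKO replicate 3 (0.0720), and Gm6367 without cKO replicate 3 (0.0542). The log2 fold change stayed at or below -1.18 in each of these fits.

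Pramel48 and E330014E10Rik, of the last sequence set, were not past the threshold. Pramel48 had 44.5, 83.8, 53.2 and 17.0 RPM in cKO and 281, 152 and 72.7 RPM in WT (log2 fold change -1.74, SE 0.53, adjusted p = 0.0823). E330014E10Rik had 63.5, 107, 67.4 and 20.5 RPM in cKO and 297, 144 and 71.9 RPM in WT (log2 fold change -1.37, SE 0.55, adjusted p = 0.176). In both, cKO replicate 2 lay above WT replicate 3, and the other libraries did not overlap.

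Gm3286, Gm16513 and Gm3183 were not past the threshold either, with log2 fold changes of -1.58, -1.56 and -1.51 (adjusted p = 0.107, 0.0956 and 0.132). Their means were 22.9, 11.8 and 5.99 RPM in cKO and 69.0, 37.0 and 20.3 RPM in WT. Without cKO replicate 4 and WT replicate 3, Pramel48, E330014E10Rik, Gm3286, Gm16513 and Gm3183 were past the threshold, with log2 fold changes of -1.81, -1.41, -1.56, -1.62 and -1.68. That fit was chosen after seeing the data and leaves out the lowest WT library of each, so these calls cannot count as support.

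The remaining tested PRAME members of chromosome 5 were not past the threshold. The transcript spanning Gm6351 and Pramel38 had a mean of 14.3 RPM in cKO and 25.3 RPM in WT (log2 fold change -0.63, adjusted p = 0.441), and that spanning Pramel41 and Pramel42 had 10.1 and 16.8 RPM (log2 fold change -0.56, adjusted p = 0.447). Their WT values were led by WT replicate 1, with 44.1 and 28.6 RPM. Gm43225 was near the detection limit, with a mean of 0.725 RPM in cKO and 1.01 RPM in WT.

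Along the coordinate the lower members reach from chr5:93634993 to chr5:95662896, over 2027903 bases, a stretch that holds 14 of the 15 tested PRAME members.

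Summed over all members, which does not depend on how reads were split between copies of 1 cluster, the chromosome 5 cluster held 924, 1391, 909 and 582 RPM in cKO and 3997, 2445 and 1884 RPM in WT. The cKO mean of 951 ± 333 RPM (SD, n = 4) was 34.3% of the WT mean of 2776 ± 1095 RPM (SD, n = 3), and the genotypes did not overlap. Leaving out 1 library gave 29.0% to 43.9%. The chromosome 4 cluster held 9002, 11225, 9072 and 3718 RPM in cKO and 14149, 13958 and 7407 RPM in WT. Its cKO mean of 8255 ± 3195 RPM (SD, n = 4) was 69.7% of the WT mean of 11838 ± 3839 RPM (SD, n = 3), with overlap, and 58.7% to 82.5% when 1 library was left out. Without cKO replicate 4 and WT replicate 3 the shares were 33.4% and 69.5%. Scaled to the reads within transcripts, which were 83.6% to 86.8% of mapped reads in cKO and 90.1% to 90.4% in WT, the shares were 36.2% and 73.7%.

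**Figure D4:**
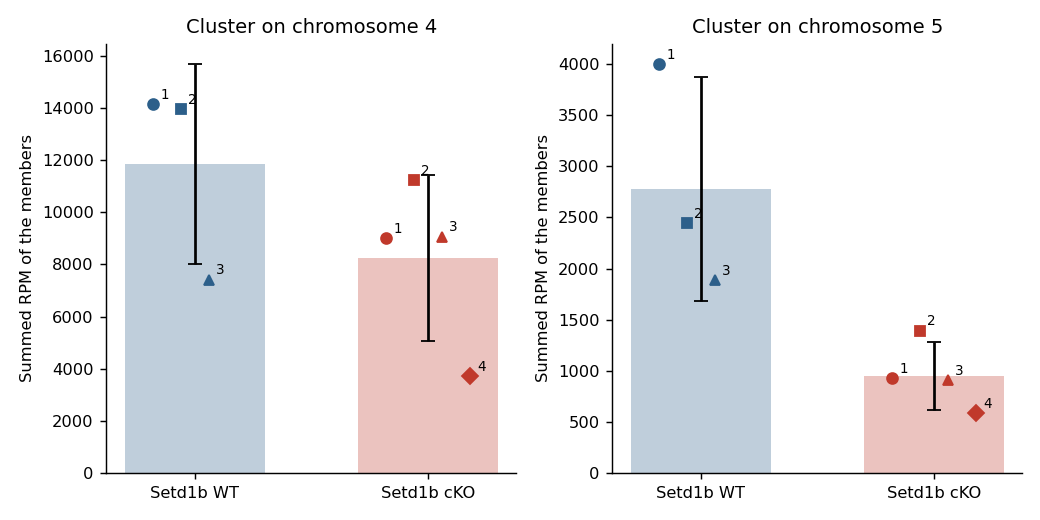
Summed RPM of all members of each cluster by genotype, with bars at the mean, error bars at 1 SD (n = 3 WT and n = 4 cKO) and 1 numbered point per library. On chromosome 5 the highest cKO library (1391 RPM) lies below the lowest WT library (1884 RPM), and on chromosome 4 the genotypes overlap.

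The members that were not tested reached 1 RPM in fewer than 3 libraries. On chromosome 4, 8 members had 0 reads in every library and on chromosome 5, 2 members, which allows up to 0.231 to 0.350 RPM per library by counting error at 3 reads. Pramel1, Pramel16, Pramel36 and the transcript spanning Pramel5 and Gm13130 had means of at most 0.170 RPM in both genotypes. Pramel30 averaged 0.184 RPM in cKO and 1.07 RPM in WT, with every cKO library below every WT library, and was not tested. Pramel45 (1.07 and 0.677 RPM), Gm7982 (0.652 and 0.334 RPM) and Pramel40 (0.432 and 0.421 RPM) were low in both.

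Of the 32 members without a PRAME gene 8 were tested and 0 were past the threshold by limma, while 2 had an unadjusted p under 0.05, which is near the 21.7% of all transcripts tested. Pdpn, which encodes podoplanin, a membrane glycoprotein, is the first tested transcript of the chromosome 4 window and had 105, 160, 140 and 69.0 RPM in cKO and 88.6, 102 and 59.0 RPM in WT (log2 fold change 0.47, adjusted p = 0.432). Gm5559 at the end of the chromosome 5 window had 5.25, 4.94, 8.01 and 6.64 RPM in cKO and 3.08, 3.08 and 3.46 RPM in WT, higher in every cKO library but not past the threshold (log2 fold change 0.76, adjusted p = 0.129). The 6 tested transcripts with no gene on their strand had log2 fold changes from -0.86 to 0.56. Since it is not stated whether counting used the strand, a transcript opposite another gene may hold reads of that gene, as for the one opposite C87414 at the start of the chromosome 5 window (3.59 RPM in cKO and 7.24 RPM in WT).

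Family members elsewhere in the genome gave a mixed picture. None of the 5 tested transcripts outside the windows whose symbol begins with Prame passed the threshold by limma, and 4 of them had an unadjusted p under 0.05, beside 21.7% of all transcripts tested. Pramel32, on chromosome 4 outside the window, had 263, 326, 218 and 115 RPM in cKO and 510, 428 and 340 RPM in WT (log2 fold change -0.96, SE 0.33, adjusted p = 0.118). Pramel51 on chromosome 12 had 1768, 1963, 1494 and 853 RPM in cKO and 1749, 1944 and 1159 RPM in WT (log2 fold change -0.12, adjusted p = 0.877).

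Pramel33 starts just before the chromosome 5 window and had 4.35, 10.5, 7.23 and 1.398 RPM in cKO and 30.7, 14.2 and 6.74 RPM in WT (log2 fold change -1.39, adjusted p = 0.181). Pramel7 and Pramel17 were low, with means of 4.26 and 3.53 RPM in cKO and 1.23 and 1.28 RPM in WT (log2 fold changes 1.16 and 0.94, adjusted p = 0.0664 and 0.110), and were higher in every cKO library than in every WT library. Oog1 on chromosome 12, chosen after its values were seen as the remaining oogenesin, had a log2 fold change of -0.10 (adjusted p = 0.912).

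Within 1000000 bases of the windows 29 of 53 transcripts were tested, 2 were lower and 2 were higher, beside 1.95% and 3.76% of all transcripts tested. Dhrs3, a retinal reductase gene past the end of the chromosome 4 window, fell from a mean of 32.7 RPM in WT to 1.003 RPM in cKO (log2 fold change -3.97, adjusted p = 7.19e-04). The others were an unnamed transcript on chromosome 4 that was listed with 0 reads in all cKO libraries and a mean of 1.16 RPM in WT, and so met the filter only through the WT libraries, an unnamed transcript on chromosome 5 (log2 fold change 1.497) and Fras1, which encodes an extracellular matrix protein (log2 fold change 1.62, adjusted p = 0.0434). The median over the flanking transcripts tested was 0.06.

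Promoter sequence was available for members that RefSeq annotates. For 20 genes of tested members a RefSeq start was known, and in 6 of them the oocyte transcript starts within the 250 bases before it. In the others the starts lie further apart, such as 854 bases for Pramel25, 2729 bases for Pramel27 and 55233 bases for Pramel35. The median distance over the 20 genes was 3193.5 bases. Of 6 genes of lower members with a RefSeq start, 1 had the oocyte start in its window. The promoters of the 20 genes held 0 to 6 CpG in these 250 bases (median 1), beside a median of 6 over 32851 mouse promoters. The homeobox motif TAATTG, the sequence bound by the oocyte factor NOBOX, was counted on either strand of these 250 bases. It was found in 5 of the 6 windows that hold an oocyte start and in 11 of 26 promoters of family members in all. Of all promoters of this length 7.17% held it. In Oog4 the motif lies past the oocyte start, which is 195 bases before the RefSeq start. TAATTA was found in 1 of the 6 and in 4.84% of all, and TATAAA in 2 of the 6 and in 12.4%. CANNTG was found in 5 of the 6 and in 66.2% of all, and GGGCGG in none of the 6 and in 32.7%.

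Among the 6, Pramel23 was lower, the others did not pass the threshold, and TAATTG was absent from the 250 bases of Pramel23. The counts are a description of related sequences. Shown for comparison are the 250 bases before the RefSeq start (GRCm38.p6) of Pramel23 at chr4:143702712-143702961 (- strand), Oog3 at chr4:144162652-144162901 (- strand) and Pramel48 at chr5:95456556-95456805 (+ strand), with TAATTG, its reverse complement and TAATTA in capitals.
Pramel23: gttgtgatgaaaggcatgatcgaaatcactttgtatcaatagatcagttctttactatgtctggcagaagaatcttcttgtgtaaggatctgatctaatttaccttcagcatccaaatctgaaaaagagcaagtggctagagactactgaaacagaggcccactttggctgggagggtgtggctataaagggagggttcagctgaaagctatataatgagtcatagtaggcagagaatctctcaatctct
Oog3: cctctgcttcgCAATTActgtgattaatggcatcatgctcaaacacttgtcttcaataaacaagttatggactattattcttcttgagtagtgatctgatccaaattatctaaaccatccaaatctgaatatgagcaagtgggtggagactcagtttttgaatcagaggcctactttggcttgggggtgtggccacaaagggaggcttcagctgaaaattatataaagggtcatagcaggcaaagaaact
Pramel48: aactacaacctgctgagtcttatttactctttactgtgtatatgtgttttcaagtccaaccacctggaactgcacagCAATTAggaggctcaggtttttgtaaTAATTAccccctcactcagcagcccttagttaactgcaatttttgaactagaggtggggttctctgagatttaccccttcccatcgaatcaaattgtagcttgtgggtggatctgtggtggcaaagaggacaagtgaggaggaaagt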

How the data were processed

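Oocyte cDNA was amplified by the authors with the SMARTer kit and sequenced in single reads, which they trimmed, mapped to GRCm38 with Hisat, filtered for mapping quality and quantified in SeqMonk over oocyte transcripts with isoforms merged. The submitters' processing notes also list bcl2fastq 1.8.4 and featureCounts 1.4.4, with no role. Strand use in counting is not given in the sources used here. The deposited values are log2 RPM, with 0.9 read in place of 0, and gave whole reads for 100% of values (tolerance 0.02).

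Values were transformed to log2(RPM + 1) and compared with limma 3.58.1 (lmFit, eBayes with an intensity trend) under R 4.3.3, without covariates, with Benjamini-Hochberg adjustment over all 18179 transcripts with at least 1 RPM in at least 3 of 7 libraries. A fold change on this scale understates that of low transcripts. The threshold was an adjusted p under 0.05 and over 2-fold. P-values measure the spread between these oocytes, whose mothers are not given. The fit was tested on simulated data.

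Transcripts were named from GENCODE M21 and RefSeq by strand and overlap. PRAME family genes were those so named or with at least 1% of their 25-base words in such a gene, a limit set after the values were seen. Named by rule were members past the threshold, the 10 with the highest mean RPM in each cluster, tested PRAME genes outside and tested other genes inside, with the remaining family members named to account for each. The members, lists and tests were chosen with earlier results of these data known. Alternatives covered pseudocounts, filters, scaling, voom, eBayes settings, library weights, the replicate block and each library left out. Python 3.11.15 was used for the rest.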

Additional observations from a re-analysis of the deposited data

Results flagged for a closer look

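In 1 of 37 groups of 4 cKO libraries, that of Pramel13, 1 library stood apart by Dixon's criterion. It had 102 RPM in cKO replicate 4, against 54.7, 62.3 and 62.1 RPM in the other cKO libraries, a gap of 0.842 of the range. Chance gives such a gap in about 1 of 20 groups, and WT replicate 3 was likewise the highest WT library at 131 RPM.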

How the results depend on the processing

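For the 13 members past the threshold 281 values were recomputed over 22 other settings, of which 0 changed direction and 249 stayed past it. Pramel14 did not reach the filter in some. With all libraries, calls were lost only for Pramel14 and Gm13108-Pramel4, and 7 members not past the threshold passed it under some setting. On chromosome 4 the number lower was 3 to 5 without 1 library, beside 0.609% to 2.47% of all transcripts. The number higher was 0 to 1 without 1 library, 0 with a pseudocount of 5 RPM and 0 without a filter. Of all transcripts in those fits 0.955% to 4.81%, 1.73% and 1.35% were higher. Without a filter the median of chromosome 4 was -0.041, since more transcripts near 0 reads entered. On chromosome 5 the number lower was 2 to 9 without 1 library, 11 with library weights and 12 without cKO replicate 4 and WT replicate 3 (chosen after seeing the data). Of all transcripts in those fits 0.609% to 2.47%, 3.05% and 2.89% were lower. PRAME transcripts past the threshold outside the clusters numbered 1 with library weights and 1 without both libraries. Flanking transcripts past it numbered 1 with a pseudocount of 5 RPM or a mean of at least 4 RPM, 2 without a filter, with quantile normalisation or with either voom fit, and 1 to 4 without 1 library. Centring on the median gene moved the median of all transcripts from 0.12 to -0.03, and with it 458 were higher and 531 lower in place of 683 and 355. Pramel25 was -0.021 when centred and -0.12 to 0.44 without 1 library, and Pramel29 was -0.11 to 0.50. Gm13100 was 0.055 with library weights, 0.043 scaled to reads within transcripts, 0.16 without both libraries and -0.18 to 0.15 without 1 library.

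Same-numbered libraries correlated in their deviations at 0.192, 0.295 and -0.129, so the numbers were not taken to pair the libraries, and of the 3 shared numbers only cKO replicate 1 correlated best with its own. With the replicate block, which leaves cKO replicate 4 without weight, 5 members were lower on chromosome 4 and 8 on chromosome 5. Of all transcripts in that fit 2.63% were lower, and Gm13100 was 0.15. Depth limits statements on members near 1 RPM, and sequence shared between copies limits those on single copies in both clusters. The cause of the changes between settings was not tested.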
